A study of Mus musculus with 743 samples.

Results

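Transcripts of 6 genes for sodium and potassium handling, Scn7a, Atp1b1, Atp1b2, Atp1b3, Kcnj10 and Kcna1, were followed in single Schwann cells (SCs) of the mouse sciatic nerve at postnatal day 1 (P1). They were 6 of 25700 genes in the count table. They were taken by name, as a sodium-responsive channel, the beta subunits of the sodium pump and a pair of potassium channels, and Scn7a was already known to be low in the promyelinating cells of these plates. SCs were isolated from C57BL/6J mice in which a Cre transgene active in the SC lineage switches on an eYFP reporter, and which also carry dsRed under a beta-actin promoter. All wells shared this genotype, and each plate held cells pooled from 1 male and 1 female mouse. Cells were sorted for eYFP into the wells of 2 plates, so Cre activity set which cells could enter, and were sequenced by Smart-seq2, a full-length protocol for single cells. Of 743 wells, 621 cells had reads of at least 1500 genes, 287 on plate 1 and 334 on plate 2. The plates drew on different mice and serve as replicates (n = 2), whereas cells of a plate do not.

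The cell classes were chosen by measured reads as well, as CPM (counts of the gene per 1000000 counts of the cell). Cycling cells had at least 50 CPM of Mki67 plus Top2a, genes of dividing cells. Promyelinating cells were not cycling and had at least 50 CPM of Ncmap, a myelin membrane protein. The other cells were split at 200 CPM of Cdkn1c, a cell cycle inhibitor. This gave 53 and 57 cycling cells on plates 1 and 2, 59 and 60 promyelinating, 59 and 92 Cdkn1c-high other and 116 and 125 Cdkn1c-low other cells. Few cells lay within 2-fold of a threshold for cycling (9 of 621) or for Ncmap (9 of 511), but 66 of the 392 other cells did for Cdkn1c. Median reads per cell were between 701288 and 999209 in these classes, and median genes per cell were higher in promyelinating cells (3690 and 3550) and cycling cells (3425 and 3477) than in the other cells (2775 and 2819). The SC genes Sox10, S100b and Erbb3 summed to 443 to 757 CPM in every class and plate. Of 10 further genes of promyelinating SCs, 9 stood 2-fold above the cycling and the other cells, and so did 7 of 7 further division genes in the cycling cells. Of 8 genes of immature SCs, 0 stood 2-fold above both remaining classes in the other cells, so these are called other cells here. Some genes of fibroblasts (Pdgfra), endothelium (Cdh5, Kdr), leukocytes (Ptprc, Tyrobp), mural cells (Acta2, Rgs5) and neurons (Rbfox3) were at 0 in all classes, but further genes of these lists were read. Among those read were Pecam1 and Cd68, with which the paper labels endothelial and immune cells. They reached 8.37 CPM (Pecam1, Cdkn1c-high cells of plate 1) and 3.43 CPM (Cd68, cycling cells of plate 1). The summed levels over classes and plates ran from 0 to 55.4 CPM for 3 fibroblast genes (led by Dcn), 0 to 8.41 for 5 endothelial genes, 2.77 to 37.2 for 4 leukocyte genes (led by Csf1r) and 24.8 to 64.1 for 4 mural genes (led by Pdgfrb and Cspg4). Pdgfrb took 43.7 and 13.8 CPM, in 32.2% and 13.3% of promyelinating cells, and 20.7 and 37.8 CPM, in 5.71% and 7.37% of the other cells. The part of such cells in the results was not tested.

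The sodium pump moves sodium out of the cell and potassium in. Its alpha subunit does the transport, its beta subunit brings the alpha subunit to the membrane, and small FXYD proteins tune its rate. Glia also take up potassium that firing axons release, partly through inward rectifier channels. Scn7a encodes a channel related to the voltage-gated sodium channels that responds to extracellular sodium and is known from nonmyelinating SCs. Atp1b1, Atp1b2 and Atp1b3 encode beta subunits, the product of Atp1b2 being also a glial adhesion molecule. Kcnj10 encodes the main inward rectifier of many glia, and Kcna1 a voltage-gated potassium channel best known from the axon beside the node.

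The upstream sequences of the member that was low and of the 2 members with the highest levels in promyelinating cells are shown, since their levels differed between the classes in opposite directions. Each is the 250 bases before the gene's start in RefSeq (GRCm38.p6; for Atp1b3, the outer of 2 listed starts), written from 5′ to 3′ on the gene's own strand, and entries matched 4 of the 6 members. Capitals mark matches on either strand to GTGGGNG, a core letter string bound by EGR factors, which 28.1% of 32817 mouse upstream windows of this length hold. The strings ACAAAG and ACAATG, cores of SOX binding, are held by 16.5% and 10.7% of windows.
Scn7a, chr2:66784911-66785160, minus strand: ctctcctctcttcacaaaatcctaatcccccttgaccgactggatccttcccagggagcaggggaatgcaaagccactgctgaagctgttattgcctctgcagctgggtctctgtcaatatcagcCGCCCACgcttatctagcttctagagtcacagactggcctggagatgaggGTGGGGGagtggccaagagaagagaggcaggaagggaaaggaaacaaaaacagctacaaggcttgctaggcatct
Atp1b3, chr9:96364432-96364681, minus strand: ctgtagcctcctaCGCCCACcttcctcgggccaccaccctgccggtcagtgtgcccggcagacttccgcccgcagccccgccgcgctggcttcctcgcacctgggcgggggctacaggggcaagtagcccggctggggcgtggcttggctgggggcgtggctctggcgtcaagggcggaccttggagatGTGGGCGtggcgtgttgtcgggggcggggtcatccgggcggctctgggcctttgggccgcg
Kcnj10, chr1:172340960-172341209, plus strand: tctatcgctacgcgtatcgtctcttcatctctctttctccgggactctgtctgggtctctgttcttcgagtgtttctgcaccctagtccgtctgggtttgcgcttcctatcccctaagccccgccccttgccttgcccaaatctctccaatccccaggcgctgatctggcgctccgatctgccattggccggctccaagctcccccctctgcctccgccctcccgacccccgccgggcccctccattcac
The Scn7a and Atp1b3 windows each held 2 matches to GTGGGNG, and no window shown held either SOX string. The Kcnj10 window held none of these letters. Of the windows not shown, that of the inner Atp1b3 start (chr9:96363716-96363965) and that of Atp1b1 each held 1 match to ACAAAG and none to GTGGGNG. No match overlapped another.

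Scn7a (chromosome 2, 66673425 to 66784914, minus strand, GRCm38) was near absent from promyelinating cells. Summed over the cells of a class, it took 1.25 CPM on plate 1 and 12.6 on plate 2 in promyelinating cells. It took 85.9 and 78.1 in cycling cells, 48.1 and 35.9 in Cdkn1c-high and 145 and 111 in Cdkn1c-low other cells. From promyelinating through Cdkn1c-high and cycling to Cdkn1c-low cells, the plates of neighbouring classes did not overlap. This order of sums rested in part on few cells. The 3 cells with most reads held 83.3% and 86.2% of the Scn7a reads of Cdkn1c-high cells. They held 51.6% and 37.4% in cycling and 29.7% and 26.9% in Cdkn1c-low cells. The level in promyelinating cells was 6.93 ± 8.04 CPM against 95.5 ± 23.3 in all other cells (mean ± SD, n = 2), and the fitted log2 fold change was -3.71 (SE 0.92). Taken plate by plate, the log2 ratios were -6.49 and -2.65. This contrast is given without a test, since Scn7a was known to be low here.

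The low sum came from few cells rather than low reads in many. Reads of Scn7a were found in 1 of 59 and 2 of 60 promyelinating cells, or 1.69% (exact 95% interval 0.0429 to 9.09%) and 3.33% (0.406 to 11.5%), the interval covering counting error only. Scn7a was found in 64.2% and 56.1% of cycling cells, in 18.6% and 18.5% of Cdkn1c-high and in 51.7% and 52.8% of Cdkn1c-low other cells. The shares and the sums put cycling and Cdkn1c-low cells in opposite orders, so no order of these classes is read from the shares. With each cell thinned to 50000 reads, and the 5 shallower cells left out, the promyelinating shares were 1.69% and 3.45%, and those of all other cells 35.4% and 31.6%. The 3 promyelinating cells with reads had 291, 194 and 248 CPM of Scn7a. They had 183, 81.0 and 247 CPM of Ncmap, against class medians of 1367 and 1392, and ranked 12, 3 and 16 from the lowest of 119 promyelinating cells in Ncmap.

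Cycling cells held Scn7a at a level that was not separated from that of the other cells, at a log2 difference of -0.09 (SE 0.83; adjusted p = 0.991 in edgeR). Within the other cells, the Cdkn1c-high sums lay below the Cdkn1c-low sums on both plates, with log2 ratios of -1.59 and -1.63. The fitted log2 fold change of -1.60 (SE 0.80) did not pass the test (edgeR p = 0.0713, adjusted p = 0.872). Most reads of the Cdkn1c-high sums came from 3 cells on each plate.

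Other measures were also lowest in promyelinating cells. Of the genes that respond to tissue dissociation, 8 were summed (Fos, Fosb, Junb, Egr1, Atf3, Ier2, Hspa1a and Hspa1b, each read in every class). Their sum was 2205 and 2418 CPM in promyelinating cells. It was 3574 and 4462 in Cdkn1c-high, 7018 and 7808 in Cdkn1c-low and 4726 and 7160 in cycling cells. Fos made up most of the sum (1871 and 1961 CPM in promyelinating cells), and all of these genes but Hspa1a and Hspa1b, which were lower in cycling cells, were lowest in promyelinating cells on both plates. Atf3 had no read in promyelinating cells of plate 1 and took 1.09 CPM on plate 2. The sum of the 8 immature SC genes, led by Ncam1 in all classes but the promyelinating cells, was 338 and 425 CPM in promyelinating, 770 and 678 in Cdkn1c-high, 1044 and 876 in Cdkn1c-low and 1113 and 1054 in cycling cells. It was thus higher in cycling than in Cdkn1c-low cells. Between these 2 classes, Scn7a was lower in cycling cells by summed level and higher by share of cells. Within the immature list, Nes, an intermediate filament of progenitors, went the other way. It took 155 and 224 CPM in promyelinating against 64.1 and 47.2 in the other cells. The part of either sum in the Scn7a result was not tested. Across the other cells alone (175 on plate 1 and 217 on plate 2), the genes most like Scn7a by Pearson's r of log2(CPM + 1) were Wwp1, a ubiquitin ligase, with r of 0.45 and 0.40 on the plates. Next came Ngfr, the low-affinity neurotrophin receptor of immature SCs (0.39 and 0.37), and Atf3, a stress-induced transcription factor of the dissociation list (0.34 and 0.31). These points are cells that share a plate and differ in depth, and r is a description. No other member had a gene at 0.3 or more on both plates among 5996 genes compared.

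**Figure D1:**
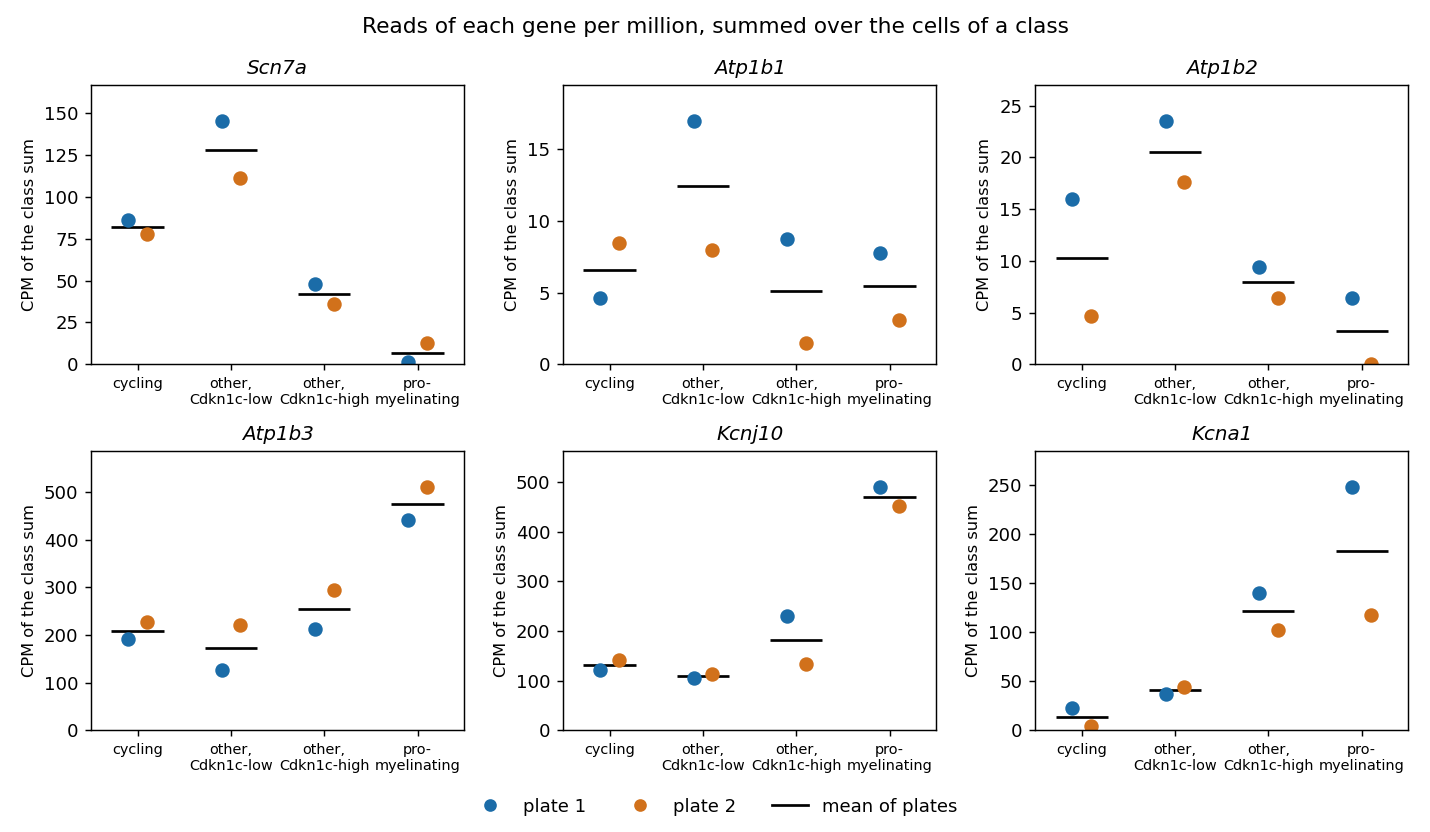
Level of each member by cell class, as CPM of the reads summed over all cells of a class on a plate (y axis, linear, starting at 0; each panel has its own scale), with points for plates 1 and 2 and a line at their mean. Scn7a was lowest in promyelinating cells (1.25 and 12.6 CPM), while Kcnj10 was highest there (489 and 451 CPM).

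The 3 beta subunits of the pump differed by more than an order of magnitude in level, and only Atp1b3 was read in most cells. Per kilobase of exon, which allows a comparison between genes, Atp1b3 (chromosome 9, 96332655 to 96364442, minus strand) took 199 ± 20.2 CPM per kb in promyelinating cells. It took 87.4 ± 10.6 in cycling, 106 ± 24.6 in Cdkn1c-high and 72.3 ± 27.8 in Cdkn1c-low other cells. Atp1b1 (chromosome 1, 164437109 to 164458355, minus strand) stayed between 1.66 and 4.04 CPM per kb as a class mean, and Atp1b2 (chromosome 11, 69599736 to 69605942, minus strand) between 0.779 and 5.03. Atp1b3 made up 98.7% ± 1.19 of the beta subunit level per kb in promyelinating cells, 96.4% ± 2.73 in Cdkn1c-high, 94.9% ± 1.70 in cycling and 87.7% ± 7.52 in Cdkn1c-low cells. It was the sole beta subunit with a read in 46 of 59 and 53 of 60 promyelinating cells. Exons of Atp1b1 overlap those of Nme7, which runs the other way, and the strand setting of the counting is not given in the sources used here.

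Atp1b3 took 441 CPM on plate 1 and 509.6 on plate 2 in promyelinating cells. In the other cells as a whole it took 155 and 252. The promyelinating sums lay above those of every other class on both plates, while the sums of the cycling (191 and 227), Cdkn1c-high (212 and 295) and Cdkn1c-low cells (126 and 219.7) overlapped one another. The log2 fold change against the other cells was 1.31 (SE 0.27), or 2.48-fold, with an edgeR adjusted p of 0.0532, just short of the threshold of 0.05. With the plate as a block, which pairs classes from the same mice, the edgeR adjusted p was 0.0161. Reads of Atp1b3 were found in 91.5% and 96.7% of promyelinating cells against 61.1% and 65.9% of other cells. Thinned to 50000 reads the shares were 84.7% and 91.4% against 53.1% and 61.4%. Against the Cdkn1c-high cells, the log2 fold change was 0.97 (SE 0.30, edgeR adjusted p = 0.271).

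Atp1b2 had its lowest values in promyelinating cells, with 6.37 CPM on plate 1 and no read on plate 2. It had 15.9 and 4.64 in cycling, 9.43 and 6.41 in Cdkn1c-high and 23.5 and 17.6 in Cdkn1c-low other cells. The promyelinating and the other cells (18.7 and 12.8) did not overlap, but the log2 fold change of -2.23 had an SE of 1.99 (edgeR adjusted p = 0.804). It was read in 2 of 59 promyelinating cells on plate 1 and in 0 of 60 on plate 2, which allows a share of up to 5% there by the floor of 3 counts and 5.96% by the exact 95% interval, against 14.3% and 13.4% of other cells. Few cells carried these reads: in Cdkn1c-high cells, the 3 cells with most reads held 98.3% and 87.3% of them.

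Atp1b1 was low in every class. Its sums were 7.77 and 3.11 CPM in promyelinating, 4.61 and 8.48 in cycling, 8.75 and 1.45 in Cdkn1c-high and 16.9 and 7.93 in Cdkn1c-low other cells. These values overlapped between neighbouring classes, and no comparison passed the test (edgeR adjusted p of 0.933 or more in each). At this spread between plates a moderate change of Atp1b1 or Atp1b2 was not detectable.

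Kcnj10 was the member that passed in the main edgeR fit, which did not pair classes by plate. The gene (chromosome 1, 172341210 to 172374085, plus strand) took 489 and 451 CPM in promyelinating cells, against 148 and 121 in the other cells. The sums of cycling (120.3 and 142) and Cdkn1c-high cells (230.2 and 133) overlapped, and those of Cdkn1c-low cells (105 and 112) lay just below both. Kcnj10 rose 3.69-fold in promyelinating against other cells, or by 1.88 on the log2 scale (SE 0.24; adjusted p = 0.00603 in edgeR), with log2 ratios of 1.73 and 1.90 on the plates. In this comparison 238 of 13292 genes passed, or 1.79% in either direction. Of the members, with Scn7a left out, 1 passed in this fit. With the plate as a block, and with DESeq2 and limma, Atp1b3 passed beside Kcnj10. Reads of Kcnj10 were found in 81.4% and 85.0% of promyelinating cells against 37.7% and 29.0% of other cells, and in 72.9% and 82.8% against 30.9% and 24.2% after thinning. Among cells with a read, the median was 412 and 393 CPM in promyelinating cells and 199 and 218 in other cells, so both the share of cells and the level in them were higher.

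Within the other cells, Kcnj10 was read in 49.2% and 37.0% of Cdkn1c-high and in 31.9% and 23.2% of Cdkn1c-low cells. It was read in 49.1% and 45.6% of cycling cells, so a share of this size was not particular to Cdkn1c-high cells. The log2 fold change of Cdkn1c-high against Cdkn1c-low cells was 0.76 (SE 0.30, edgeR p = 0.0285, adjusted p = 0.836), with log2 ratios of 1.14 and 0.24. That of promyelinating against Cdkn1c-high cells was 1.42 (SE 0.30, edgeR adjusted p = 0.0643).

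**Figure D2:**
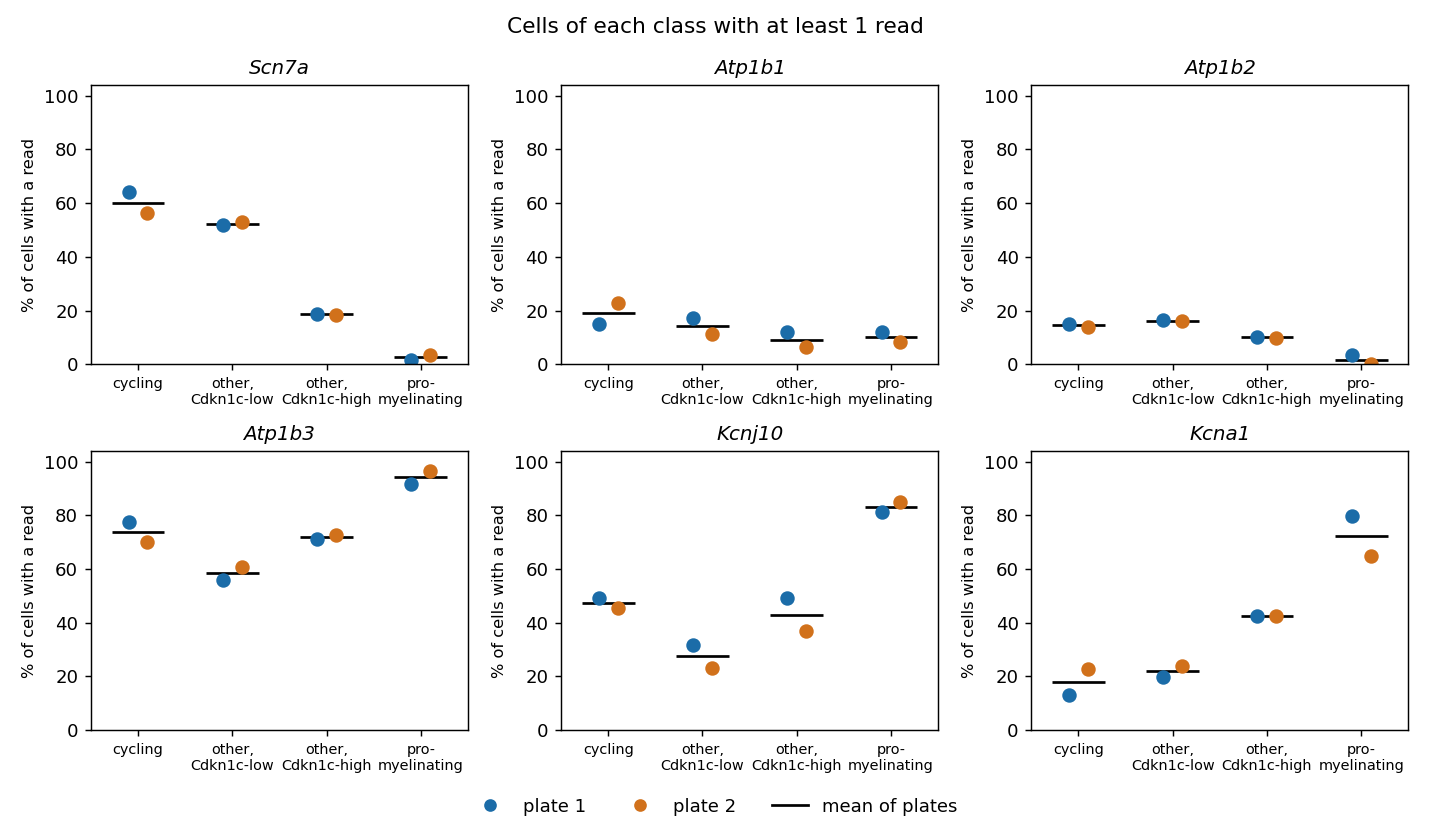
Percent of cells with at least 1 read of each member (y axis, 0 to 100% in every panel; points are plates 1 and 2, lines their mean). Kcnj10 was read in 81.4% and 85.0% of promyelinating cells and Scn7a in 1.69% and 3.33%.

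Kcna1 (chromosome 6, 126640397 to 126646384, minus strand) was highest in promyelinating and Cdkn1c-high cells. It took 248 and 117 CPM in promyelinating, 139.9 and 103 in Cdkn1c-high, 37.1 and 44.4 in Cdkn1c-low and 23.1 and 4.30 in cycling cells. The promyelinating and Cdkn1c-high sums overlapped, and both lay above the remaining classes on both plates. Against all other cells (72.2 and 69.3), the promyelinating log2 fold change was 1.45 (SE 0.71, edgeR adjusted p = 0.515). Against Cdkn1c-high cells it was 0.64 (SE 0.66, edgeR adjusted p = 0.849). Cdkn1c-high against Cdkn1c-low cells gave 1.59 (SE 0.68, edgeR p = 0.0400, adjusted p = 0.872), and cycling against other cells -2.22 (SE 0.73, edgeR p = 0.0156, adjusted p = 0.329). Reads of Kcna1 were found in 79.7% and 65.0% of promyelinating, 42.4% and 42.4% of Cdkn1c-high, 19.8% and 24% of Cdkn1c-low and 13.2% and 22.8% of cycling cells. Thinning took the promyelinating shares to 67.8% and 44.8%. Neuronal genes (Snap25, Stmn2, Rbfox3, Tubb3 and Nefl) summed to between 6.77 and 27.0 CPM over the classes, with Rbfox3 at 0 throughout.

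**Figure D3:**
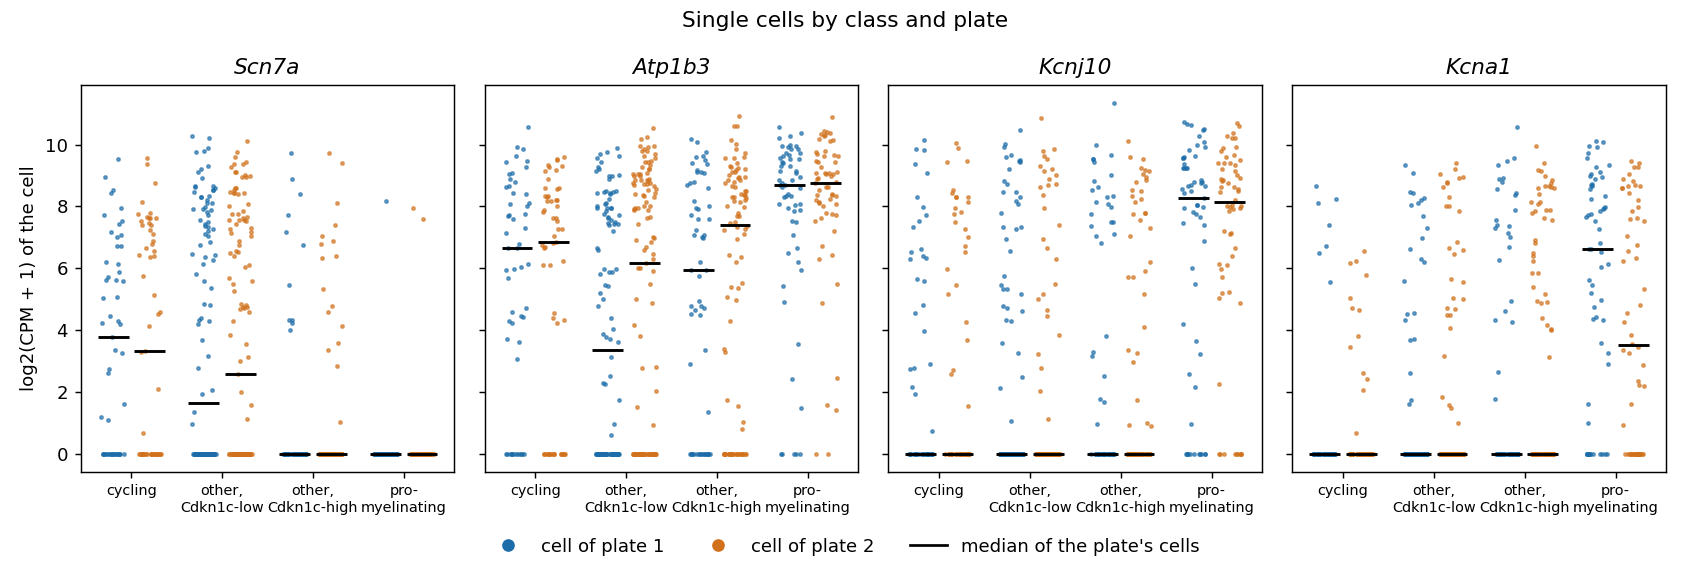
Each point is a cell, with log2(CPM + 1) of Scn7a, Atp1b3, Kcnj10 or Kcna1 on the y axis and the class and plate along the x axis, and lines mark the median of a plate's cells. In promyelinating cells the median cell had 408 and 435 CPM of Atp1b3 and 311 and 279 CPM of Kcnj10 on plates 1 and 2, and the median of Scn7a was 0.

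In the same cell, Atp1b3, Kcnj10 and Kcna1 were read together in 38 of 59 and 34 of 60 promyelinating cells. They were read together in 20 of 175 and 20 of 217 other cells, of which 12 and 16 were Cdkn1c-high. Scn7a and Kcna1 were read together in 0 of 59 and 6 of 92 Cdkn1c-high cells, of which 11 and 17 had Scn7a and 25 and 39 had Kcna1. In Cdkn1c-low cells they were read together in 10 of 116 and 15 of 125, of which 60 and 66 had Scn7a and 23 and 30 had Kcna1. Every promyelinating cell had a read of at least 1 of the 6 members, and 14 and 22 of the other cells had a read of none.

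For the remaining comparisons, edgeR called 134 of 13292 genes in cycling against other cells (1.01%), 2 of 13457 in Cdkn1c-high against Cdkn1c-low cells (0.0149%) and 135 of 13457 in promyelinating against Cdkn1c-high cells (1.00%). The 2 genes were Mpp6 and Cdkn1c, the latter having set the split, and they are named for their small number after their values were seen. Of the 6 members, 0 were called in each of these by edgeR, with Scn7a left out of the promyelinating contrast. At an unadjusted p under 0.05, leaving Scn7a out of the promyelinating contrast, 1 member passed in cycling cells, 2 in Cdkn1c-high cells and 2 in promyelinating against Cdkn1c-high cells. With Scn7a left out in the same way, DESeq2 called 1, 0 and 2 and limma 0, 0 and 1. The share of all genes at an unadjusted p under 0.05 was not counted, so unadjusted counts are not read as results. The DESeq2 and limma counts also stand here without a share over all genes and are not read as results. The median log2 fold change of the 6 members was 0.28 in promyelinating against other cells, beside -0.07 over all genes tested.

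Among the other pump genes, those called were FXYD proteins. Of 12 genes of the pump list, 9 had enough reads to be tested, and in promyelinating against other cells 1 rose, 1 fell and 7 did not pass, with a median log2 fold change of 0.35. Fxyd6, an FXYD protein known from the nervous system, took 345 and 363 CPM in promyelinating cells against 27.0 and 60.9 in other cells. It rose by 3.10 on the log2 scale (SE 0.48, edgeR adjusted p = 0.0165). Cycling cells also stood above the other cells, with 74.2 and 168 CPM of Fxyd6 (edgeR adjusted p = 0.245). It was read in 45.3% and 50.9% of cycling cells against 10.3% and 14.3% of other cells. Fxyd1, or phospholemman, a pump inhibitor until it is phosphorylated, took 32.0 and 47.6 CPM in promyelinating cells against 207 and 209. It fell by 2.31 on the log2 scale (SE 0.32, edgeR adjusted p = 0.00888). Fxyd1 also fell against the Cdkn1c-high cells, which took 131 and 125 CPM, by 1.63 (SE 0.31, edgeR adjusted p = 0.0364). That call was lost when the Cdkn1c threshold was 400 CPM (edgeR adjusted p = 0.0838). It was the sole pump gene that edgeR called there, while DESeq2 and limma each called Fxyd6 as well, as higher. In the pump list, 0 of 9 were called in cycling or in Cdkn1c-high cells by edgeR. At an unadjusted p under 0.05, 1 passed in cycling cells and 2 in Cdkn1c-high cells, again without a share over all genes. DESeq2 called 1 (Fxyd6, as higher) and 0 and limma 0 and 0, also without a share over all genes.

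**Figure D4:**
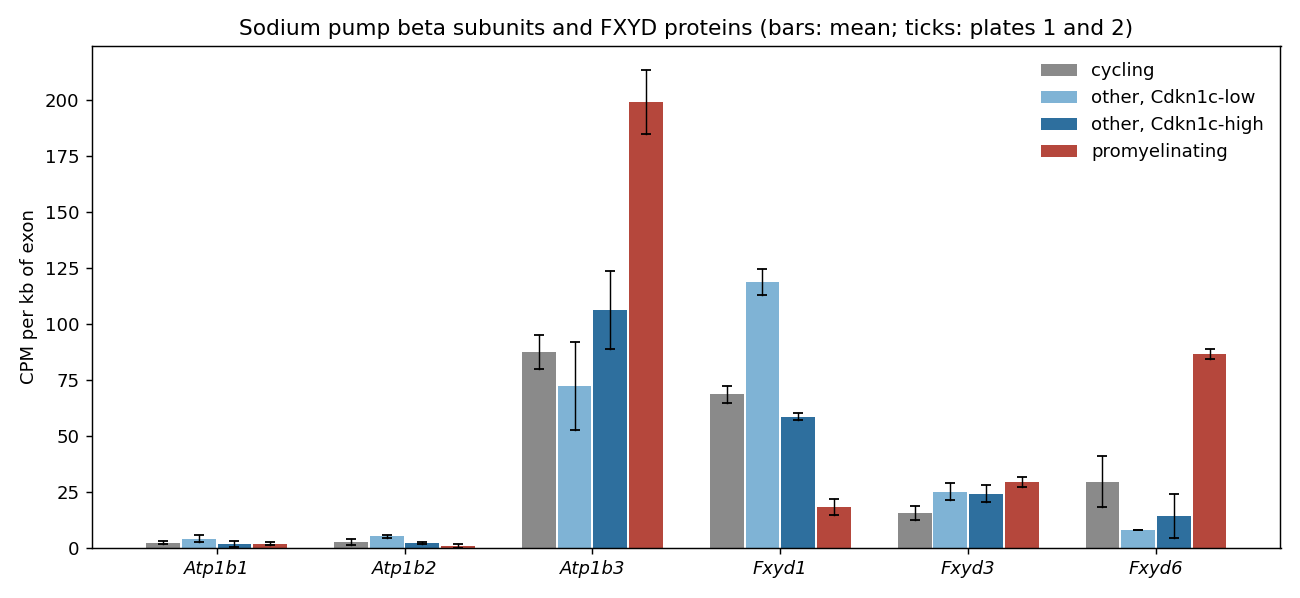
Beta subunits of the pump and FXYD proteins in CPM per kb of exon (y axis, starting at 0), with bars for the mean of 2 plates and ticks at the plates. Atp1b3 (199 CPM per kb) was the highest bar in promyelinating cells, where Fxyd6 was high (86.2) and Fxyd1 low (18.2).

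Sodium channel genes other than Scn7a were sparse. Of 14, 5 were tested in promyelinating against other cells, and edgeR called 1, as lower. At an unadjusted p under 0.05, 2 were lower. DESeq2 and limma each called 2, Scn8a and Scn9a, as lower. Scn8a, a voltage-gated channel of nodes of Ranvier, had no read in promyelinating cells and 29.6 and 15.3 CPM in other cells. Cycling cells were low in Scn8a as well, at 1.31 ± 1.47 CPM, and did not overlap the other cells (edgeR p = 0.0349, adjusted p = 0.449). No fold is given, since its reads came from few cells and a floor of 3 reads does not allow for a missed cell. Scn8a was called as lower (edgeR adjusted p = 0.0473). It no longer passed with the plate as a block, at 2500 genes per cell or at an Ncmap threshold of 200 CPM, where edgeR adjusted p reached 0.0903. The reads of Scn8a came from 8% and 6.91% of other cells. Scn9a, a channel best known from sensory neurons and the highest of the list, lies 38.5 kb from Scn7a. It took 0.652 and 0 CPM in promyelinating and 35.1 and 42.9 in other cells (edgeR p = 0.00547, adjusted p = 0.149). Within these, Cdkn1c-high cells took 2.66 and 3.54 CPM and Cdkn1c-low cells 52.0 and 72.2 (edgeR p = 0.0178, adjusted p = 0.836). The median log2 fold change of the 5 tested genes in promyelinating cells was -1.37.

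Kcnj10 was nearly alone among inward rectifiers. Of 14 other Kcnj genes, 3 had a read in any cell and 0 had enough to be tested, and the highest, Kcnj2, averaged 0.0336 CPM over the 4 classes and 2 plates. Of 24 further voltage-gated potassium channel genes, 11 were tested and 0 were called by edgeR in promyelinating against other cells, with 3 at an unadjusted p under 0.05, 2 by DESeq2 and 1 by limma. Kcna2, a relative of Kcna1 in the same axonal channel complex, was the highest of them. It took 185 and 199.8 CPM in promyelinating and 135 and 200.2 in other cells, which overlapped (log2 fold change 0.28, SE 0.29, edgeR adjusted p = 0.838). Of 9 two-pore potassium channel genes, 4 were tested, 0 were called by edgeR, 1 passed unadjusted, and DESeq2 and limma each called 1. The highest, Kcnk5, took 28.9 and 30.2 CPM in promyelinating and 16.4 and 4.76 in other cells (edgeR adjusted p = 0.580). Of 9 cation-chloride cotransporter genes, 6 were tested and 0 were called by edgeR, with 1 unadjusted, 1 by DESeq2 and 0 by limma. In the 3 remaining comparisons, edgeR called 0 genes of the sodium channel, voltage-gated and two-pore potassium channel and cotransporter lists together. At an unadjusted p under 0.05, 4 passed in cycling, 1 in Cdkn1c-high and 6 in promyelinating against Cdkn1c-high cells. DESeq2 called 1, 1 and 7 and limma 0, 0 and 2 genes. The unadjusted, DESeq2 and limma counts of these lists also stand without a share over all genes and are not read as results.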

How the data were processed

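Single SCs sorted from pooled P1 nerves were sequenced by Smart-seq2. Reads were aligned by the authors with STAR (2.6.1c in the processing notes), and featureCounts gave the counts. The paper's methods also name a human build, but every gene identifier is from mouse and GRCm38 was used here. The deposited values are raw counts per gene and well, with no normalization. IDs were matched to symbols for 25587 of 25700 genes.

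Wells with at least 1500 genes were kept. Counts were summed per plate and cell class and tested with edgeR 4.0.16 (R 4.3.3), using TMM scaling, filterByExpr and the robust quasi-likelihood test, with Benjamini-Hochberg adjustment over all genes tested. The first fit held 3 classes (6 sums) and the second split the other cells by Cdkn1c (8 sums). An adjusted p under 0.05 was a call. P-values measure the spread between 2 plates, which the labels call technical runs and the methods give as different animals. The steps were tested on simulated data of 12969 genes, 200 of them changed in the promyelinating sums. There 64 genes were called, of which 61 were changed genes, so most changed genes were missed. Plates pair the classes, since classes of a plate come from the same mice: plate differences correlated between all 6 class pairs, with r from 0.131 to 0.211 over 3717 genes.

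The rule named from the lists the genes called in a comparison (up to 4 a list) and the highest gene of each list, and for each member up to 3 genes with r of at least 0.3 on both plates, among genes of at least 20 CPM read in at least 10% of the other cells. The members, classes and lists were chosen with earlier results of these data known. Alternatives were the plate as a block, DESeq2 1.42.0, its size factors in edgeR, limma 3.58.1 on the log2 of 1 plus the mean CPM per cell, leaving low counts unfiltered, other thresholds for genes per cell, cycling, Ncmap and Cdkn1c, each plate alone, cells thinned to 50000 reads, and 5 reads to call a gene read. Floors are 3 reads. Intervals are Clopper-Pearson at 95%. Some genes that the rule names are not reported here.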

Additional observations from a re-analysis of the deposited data

Results flagged for a closer look

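The 122 wells left out for having fewer than 1500 genes (83 on plate 1 and 39 on plate 2) also held reads of the members, above the limit that a count of 0 allows, and no comparison used them. Summed over these wells, Atp1b3 took 79.7 CPM, Atp1b2 32.2 and Scn7a 20.9. Kcnj10 took 4.63 CPM, Kcna1 0.811 and Atp1b1 0.334. Only 4 wells on each plate held the Atp1b3 reads, and 4 wells of plate 1 held all those of Atp1b2. Scn7a was read in 6 and 2 of the wells.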

How the results depend on the processing

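The counts of genes called moved with the tool and the filter. For promyelinating against other cells, 238 became 1026 with DESeq2, 521 with no filter on low counts and 379 with limma. For cycling against other cells, 134 (119 higher, 15 lower) became 807 with DESeq2 (444 higher, 363 lower), 317 with no filter and 232 with limma. For Cdkn1c-high against Cdkn1c-low cells, 2 became 4 with the plate as a block, 333 with DESeq2, 117 with no filter and 1 with a Cdkn1c threshold of 400 CPM. For promyelinating against Cdkn1c-high cells, 135 became 837 with DESeq2, 487 with no filter and 232 with limma. Kcnj10 in promyelinating against other cells was called in 13 of 13 alternatives (adjusted p 4.32e-13 to 0.00688), and Atp1b3 in 6 of 13 (7.36e-05 to 0.0899). Against Cdkn1c-high cells, Kcnj10 was called in 6 of 13 (0.00048 to 0.114) and Atp1b3 in 1 (0.0336 to 0.364), and Kcna1 in cycling cells in 1 (0.0373 to 0.424). Signs of log2 fold changes turned for members that were not called. In cycling against other cells, Scn7a turned to 0.32, Atp1b3 to -0.16 and Kcnj10 to -0.034 at 2500 genes per cell, and Kcnj10 to -0.0049 at an Ncmap threshold of 200 CPM. In promyelinating against Cdkn1c-high cells, Atp1b1 turned to -0.011 at an Ncmap threshold of 10 CPM. The plates alone, where no test was possible, differed in sign in cycling against other cells for Atp1b1 (-1.62 on plate 1 and 0.71 on plate 2), Atp1b3 (0.30 and -0.15) and Kcnj10 (-0.29 and 0.23), and in promyelinating against Cdkn1c-high cells for Atp1b1 (-0.17 and 1.10). The causes were not tested. The plate as a block changed no other call of a member than that of Atp1b3. With 2 plates, the spread between plates sets what can be detected.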

Other observations

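Some genes of the lists that edgeR did not call stood apart in promyelinating cells, and they are named here after their values were seen. Kcna6, a voltage-gated potassium channel of the Kcna1 family, took 16.4 and 5.28 CPM in promyelinating cells against 64.5 and 96.4 in other cells, a log2 difference of -2.81 (SE 0.61; adjusted p = 0.0718 in edgeR). Its levels in Cdkn1c-high (58.6 and 114) and Cdkn1c-low cells (67.5 and 83.0) overlapped. Kcnk1, a two-pore potassium channel, took 12.1 and 3.99 CPM in promyelinating cells, from 6.78% and 8.33% of them, and had no read in cycling or other cells. The difference from the other cells did not pass (edgeR adjusted p = 0.186), and no fold is given, since few cells held these reads. Exons of both genes overlap another gene that runs the other way.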
